A study of Homo sapiens with 5 samples.

Results

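The genes described here are the human ZNF genes that lie outside chromosome 19: every gene of the deposited poly(A) site table whose name starts with ZNF and a number and whose chromosome is not 19. There were 202 such genes among the 12693 genes of the table, and they held 415 of its 29996 poly(A) sites. A further 170 ZNF genes with 319 sites lie on chromosome 19 and serve below as the nearest comparison. Of the 202 genes, 193 carried a plain ZNF name (ZNF, a number and at most 1 letter), which takes in pseudogene names such as ZNF252P and ZNF271P. The others were antisense, divergent, readthrough or further pseudogene names such as ZNF213-AS1 and ZNF37BP. In the annotation 201 were found, of which 189 were protein coding. The genes were spread over 21 chromosomes, with 25 on chromosome 16, 23 on chromosome 7 and 15 on chromosome 1.

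ZNF genes encode proteins with C2H2 zinc fingers, small folds that each hold a zinc ion and usually read a few bases of DNA. Many of these proteins also carry a KRAB domain, which recruits the corepressor TRIM28 and with it heterochromatin factors, and silence transposable elements in embryonic stem cells. Others have left the DNA-binding role and work in ribosome quality control, in spindle assembly or as parts of chromatin complexes. The NUDT21 product CFIm25 belongs to cleavage factor I and recognises UGUA ahead of many poly(A) sites, and its depletion in other cells is known to change which end of a transcript is used.

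The study sequenced the 3' ends of poly(A)+ RNA from the human embryonic stem cell line H9 grown in mTeSR medium, without further treatment. There were 3 libraries labelled CFIm25 KO (edited by CRISPR-Cas9 at NUDT21) and 2 labelled control KO, here called control. Per the study, each CFIm25 KO line is 1 clone with strongly reduced CFIm25 and short deletions near the N-terminus, and the controls are clones that took up an empty vector. The p-values below therefore measure the spread between clones, and differences between clones that the edit did not make cannot be told apart from its effect.

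The CFIm25 KO libraries held 5684809 to 7783102 reads and the control libraries 5203908 and 5243225. NUDT21 itself had 130.5, 128.7 and 133.1 CPM (reads scaled to the size of the library) in the CFIm25 KO clones, against 223.0 and 221.6 CPM in the controls (log2 fold change -0.77, edgeR adjusted p = 0.0324). Those tags come from the 3' end of NUDT21, away from the edit, and so say nothing of the edit itself. All 12 pluripotency markers were in the table, with summed levels of 5727 to 5909 CPM in CFIm25 KO and 4281 to 6058 CPM in control. The low control sum was that of control 2, where LIN28A had 748.5 CPM against 2504 CPM in control 1. Of 8 neural markers 4 were in the table (220.3 to 363.9 CPM in CFIm25 KO, 154.1 to 182.0 CPM in control), and the highest sum came with 116 CPM of SIX3 in CFIm25 KO clone 2. PAX6, SOX1, ZIC1 and DCX had no listed site. Summed mesoderm (2 of 7 listed), endoderm (1 of 6), trophoblast (2 of 5) and fibroblast (5 of 8) markers overlapped between the groups, and the part of any of these cell types in the values below was not tested. In bulk RNA a lower share of cells of one kind and less RNA per cell cannot be told apart.

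Where the ZNF transcripts end was looked at first. Each member had between 1 and 9 sites: 100 had 1 site, 52 had 2 and 50 had 3 or more, and the RNA-binding protein gene ZNF638 had the most. By annotation 294 sites were in a 3' UTR, 83 in an intron and 38 in another exon. Intronic sites took 6.98%, 6.59% and 7.37% of the reads of these genes in the 3 CFIm25 KO libraries, against 7.54% and 7.23% in the controls, and the groups overlapped. Over all nuclear genes the intronic share was 2.78%, 2.69% and 2.86% in CFIm25 KO, against 2.85% and 2.78% in control, so an intronic end was more common in these ZNF genes than in the table as a whole in every library.

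The last 30 transcript bases before a site are shown for genes on which the results below turn, with the poly(A) hexamer AATAAA or ATTAAA in capitals where a search of the sense strand over the last 40 bases found one. They were read from the end of the MANE Select transcript of GENCODE v44 for sites within 10 bases of the annotated gene end and for upstream sites of the same genes in the last exon. ZNF219 is the most abundant member, ZNF133 holds the called site, and ZNF747 and ZNF496 are shown with the leading pair of their tandem ends (ZNF747 has another end between them). Of the leading pair of ZNF451 the main, proximal end holds ATTAAA and the minor, distal end holds neither hexamer. The gene end of ZNF217 also holds neither.
ZNF219, gene end (chromosome 14): ccccAATAAAcaggtgtcttgaggcacagg
ZNF133, gene end (chromosome 20): gttgtAATAAActtggcttctttatacatc
ZNF747, proximal end (chromosome 16): caacctaaaaaaccagtgaccctgtattgg
ZNF747, distal end (chromosome 16): tgccaATTAAAgatgccgtgattattacct
ZNF496, proximal end (chromosome 1): gttatactttgaacacaaAATAAAcggttg
ZNF496, distal end (chromosome 1): caggtgcatAATAAAaacttgctgagtcaa
ZNF451, proximal end (chromosome 6): tgttaaataATTAAAaatcatcttaaaatt
ZNF451, distal end (chromosome 6): atcgtcagaagtaaatgtttctaacattga
ZNF217, gene end (chromosome 20): aagtgtaaatatagatttggtgttttgcaa

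Of the 90 members whose gene end could be read this way, 73.3% held AATAAA, 5.56% held ATTAAA without it and 21.1% held neither, against 73.8%, 14.97% and 11.2% of 6020 gene ends of all genes. TGTA, the DNA form of UGUA, was found in the last 100 bases of 48.9% of these ends and 57.6% of all gene ends. At the 51 upstream sites of 30 members AATAAA was found in 66.7%, against 45.6% of 3632 upstream sites of all genes. A match describes these letters only and is not a measured binding site.

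The first comparison asked which ZNF transcripts differed in level between CFIm25 KO and control cells. Most members were expressed at a low level: the median member had 11.4 CPM over the 5 libraries, against 14.8 CPM for all genes and 7.47 CPM for the ZNF genes of chromosome 19. Of the 202 members, 9 exceeded 100 CPM and 48 stayed under 5 CPM. The 8 most abundant members together made up 29.97% of the summed level, and all values in CPM are on a linear scale without division by length, since a transcript is read at its end only.

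ZNF219, known in mouse as a partner of the cartilage factor Sox9, was the most abundant at 399.0, 472.6 and 364.1 CPM in CFIm25 KO, against 311.4 and 347.3 CPM in control. ZNF687, a subunit of a chromatin complex with ZNF592 and ZMYND8, had 265.4, 284.4 and 173.3 CPM in CFIm25 KO and 209.7 and 242.5 CPM in control. ZNF207, the kinetochore and spindle protein BuGZ that binds BUB3, had 197.4, 226.2 and 197.6 CPM in CFIm25 KO and 202.6 and 188.7 CPM in control. The groups did not overlap for ZNF219 but did for ZNF687 and ZNF207, and CFIm25 KO clone 3 was the lowest of all libraries for ZNF687. ZNF316 had 154.2, 236.4 and 136.5 CPM in CFIm25 KO and 122.1 and 149.9 CPM in control, and ZNF48 had 119.8, 175.6 and 134.1 CPM in CFIm25 KO and 114.0 and 128.7 CPM in control, clone 2 being highest for both. ZNF445, which keeps imprinted loci methylated, had 108.4, 132.0 and 80.6 CPM in CFIm25 KO and 85.7 and 97.6 CPM in control.

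Of the 202 members, 191 passed the count filter and were tested, and edgeR called none at an adjusted p under 0.05, against 0.0591% of all 11841 genes tested. At an unadjusted p under 0.05 there were 11 members (8 higher, 3 lower), or 5.76%, against 7.13% of all genes (3.46% higher, 3.67% lower). DESeq2 called 1 member, ZNF717, and 0.213% of all 12693 genes. The 11 members that were not tested had 1 site each and between 1 and 26 reads in any library, and were ZNF2, ZNF213, ZNF236-DT, ZNF239, ZNF280C, ZNF295-AS1, ZNF511-PRAP1, ZNF597, ZNF641, ZNF654 and ZNF684.

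For 49 members the libraries separated by group (25.7%, against 24.5% of all genes): all CFIm25 KO values were higher for 35 (18.3%) and lower for 14 (7.33%), where all genes gave 12.0% and 12.4%. ZNF genes of chromosome 19 had 25 higher and 18 lower of 165 tested. Such counts without each library in turn, a choice made after the data were examined, also held more higher than lower members: 55 higher and 30 lower without CFIm25 KO clone 3, where all genes gave 22.7% and 23.1%, and 50 higher and 37 lower without control 1, where all genes gave 23.3% and 22.9%. It was widest without control 2, with 70 higher and 40 lower, where all genes gave 24.3% and 25.4%. The median log2 fold change of the tested members was 0.06, against 0.01 for all genes and 0.07 for the ZNF genes of chromosome 19, and 114 of the 191 (59.7%) lay above 0, against 51.6% of all genes. Without control 1 the member median was 0.025 and without control 2 it was 0.13, while the median of all genes stayed at 0.01 in both. Set against the mean of the controls on the log2 scale, the median member stood at 0.03, 0.08 and 0.01 in CFIm25 KO clones 1 to 3.

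**Figure D1:**
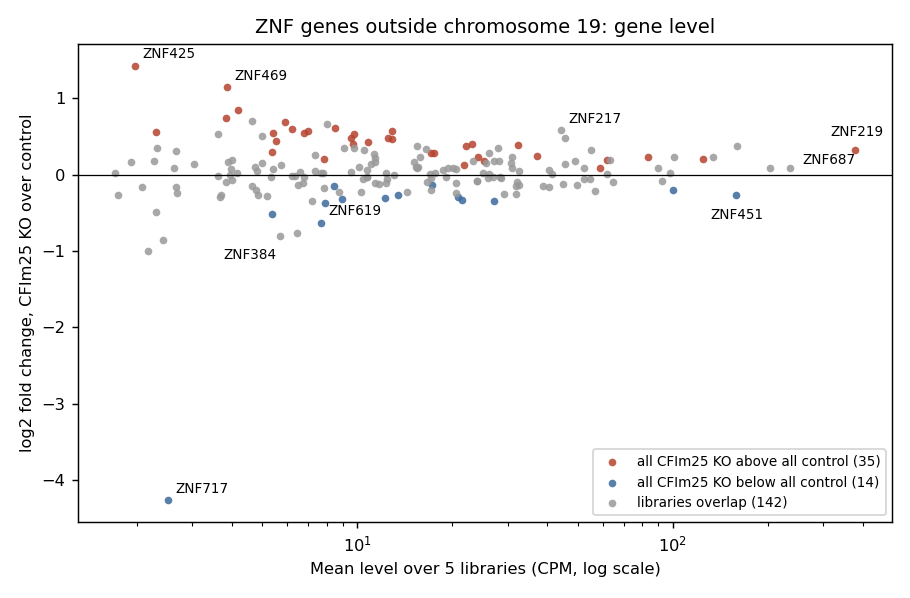
Log2 fold change of CFIm25 KO over control (y axis) against the mean level over the 5 libraries in CPM (x axis, log scale) for the 191 ZNF genes tested, 1 point per gene. The 35 genes with every CFIm25 KO clone above both controls and the 14 with every clone below are coloured, most points lie within 1 unit of 0, and ZNF717 stands alone near -4.27.

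ZNF717, a KRAB zinc finger gene on chromosome 3, had the lowest p of all members. Its single listed site, annotated as intronic at position 75729961 on the minus strand (GRCh38), held 0, 1 and 4 reads in CFIm25 KO, against 21 and 34 reads in control. The pooled level was 21.1 times higher in control (95% counting interval 8.52 to 67.6), with no overlap between the groups. The fitted log2 fold change was -4.27, and it ran between -3.60 (without CFIm25 KO clone 1) and -5.90 (without clone 3) when single libraries were left out. The counting interval was built from counting error only and takes no account of the spread between clones. The gene passed the count filter through the controls alone, where it is high, so a difference was built into its entering the edgeR test. The tests that follow use these same reads and add no support for a difference. The edgeR adjusted p for ZNF717 was 0.0773 for the gene and 0.0503 for the site, so neither passed, while DESeq2 gave an adjusted p = 0.00317 for the gene. Without CFIm25 KO clone 3, which had 4 of the 5 reads, the edgeR adjusted p of the gene was 0.00237, and with scaling by library totals it was 0.0492. Leaving out clone 3 takes away most of the CFIm25 KO reads of this gene and so favours a lower p. Over all alternatives the adjusted p of the gene ran between 1.12e-05 and 0.995 in edgeR, the highest without control 2. ZNF717 has close copies in the genome, so the assignment of its reads is uncertain.

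Several abundant or well-studied members stood higher in every CFIm25 KO clone without passing the test. The log2 fold change of ZNF219 was 0.32 (SE 0.132, edgeR adjusted p = 0.651). ZNF22, known in mouse as a tooth development gene, had 38.6, 33.0 and 35.6 CPM in CFIm25 KO and 25.4 and 29.0 CPM in control (log2 fold change 0.39, edgeR adjusted p = 0.668). ZNF367 had 10.1, 9.34 and 10.1 CPM in CFIm25 KO and 6.46 and 6.40 CPM in control (log2 fold change 0.61, edgeR adjusted p = 0.668), with the clones of each group close together. Most of these reads were intronic: 79.2%, 71.9% and 76% in CFIm25 KO and 61.3% and 83.3% in control. The 3' UTR end of ZNF367 had 15, 16 and 12 reads in CFIm25 KO and 12 and 5 in control. With 3' UTR sites only its log2 fold change was 0.40 (edgeR adjusted p = 0.923). ZNF75D had 16.2, 17.4 and 11.1 CPM in CFIm25 KO and 10.4 and 9.61 CPM in control, with clone 3 near the controls. ZNF282, first described as a factor that binds the HTLV-1 repeat, had 26.8, 22.3 and 27.7 CPM in CFIm25 KO and 20.2 and 18.6 CPM in control.

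Among the rarer members ZNF469, mutated in brittle cornea syndrome, had 5.20, 3.44 and 6.23 CPM in CFIm25 KO and 2.29 and 2.13 CPM in control (log2 fold change 1.15, SE 0.413, edgeR adjusted p = 0.600). ZNF425 had 2.11, 1.64 and 4.22 CPM in CFIm25 KO and 1.04 and 0.854 CPM in control, a log2 fold change of 1.43 that rests on few reads. ZNF704 had 4.92, 6.56 and 3.82 CPM in CFIm25 KO and 2.92 and 2.78 CPM in control. None of these groups overlapped, and none passed the test. ZNF334 had 14.9, 13.1 and 14.5 CPM in CFIm25 KO and 11.5 and 8.75 CPM in control.

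ZNF217, a corepressor subunit that is amplified in breast cancer, depended on 1 clone. It had 59.1, 57.7 and 36.4 CPM in CFIm25 KO and 31.1 and 37.4 CPM in control, so clone 3 lay between the 2 controls. The log2 fold change was 0.58 (SE 0.216, edgeR adjusted p = 0.615) and 0.77 without clone 3, where edgeR gave an adjusted p = 0.0272 and 1.03% of all genes were called. Its adjusted p ran between 0.00112 and 0.9998 over the alternatives in edgeR, the highest without control 1.

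On the lower side ZNF451, a SUMO ligase, had 148.5, 137.5 and 152.8 CPM in CFIm25 KO and 177.2 and 175.3 CPM in control (log2 fold change -0.27, SE 0.116, edgeR adjusted p = 0.668). Its reads came from 7 sites, and the leading 3' UTR site at position 57170200 of chromosome 6 held 769, 587 and 553 reads in CFIm25 KO and 609 and 621 in control. These reads are not scaled to library size, and the CFIm25 KO libraries were larger, so they cannot be compared directly between the groups. This main end made up 71.9% of the gene's reads in CFIm25 KO and 73.6% in control. ZNF678 had 23.3, 24.6 and 25.3 CPM in CFIm25 KO and 31.1 and 31.2 CPM in control. ZNF619 had 5.06, 7.21 and 6.63 CPM in CFIm25 KO and 8.75 and 10.7 CPM in control. For ZNF451, ZNF678 and ZNF619 every CFIm25 KO clone was below both controls.

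ZNF609, known in mouse to act with the cohesin loader Nipbl, had 21.2, 16.9 and 20.3 CPM in CFIm25 KO and 24.2 and 24.98 CPM in control. ZNF197, a KRAB protein that binds VHL, had 18.96, 20.2 and 18.3 CPM in CFIm25 KO and 24.4 and 22.4 CPM in control. Both were lower in every clone, by 0.34 and 0.29 on the log2 scale, without passing the test (edgeR adjusted p = 0.776 and 0.809). The remaining low members all lie on chromosome 12, where the 11 tested members had a median log2 fold change of 0.04 with 6 above 0. In each of these low members the groups overlapped. ZNF384, a fusion partner in acute leukaemia, had 6.46, 2.95 and 3.62 CPM in CFIm25 KO and 9.17 and 6.19 CPM in control. The KRAB repressor ZNF140 had 5.76, 5.90 and 3.42 CPM in CFIm25 KO and 11.7 and 5.55 CPM in control. ZNF385A, a p53 cofactor, had 0.983, 1.15 and 2.61 CPM in CFIm25 KO and 3.75 and 2.35 CPM in control. For ZNF891 the values were 1.26, 1.64 and 2.61 CPM in CFIm25 KO and 2.50 and 4.06 CPM in control.

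**Figure D2:**
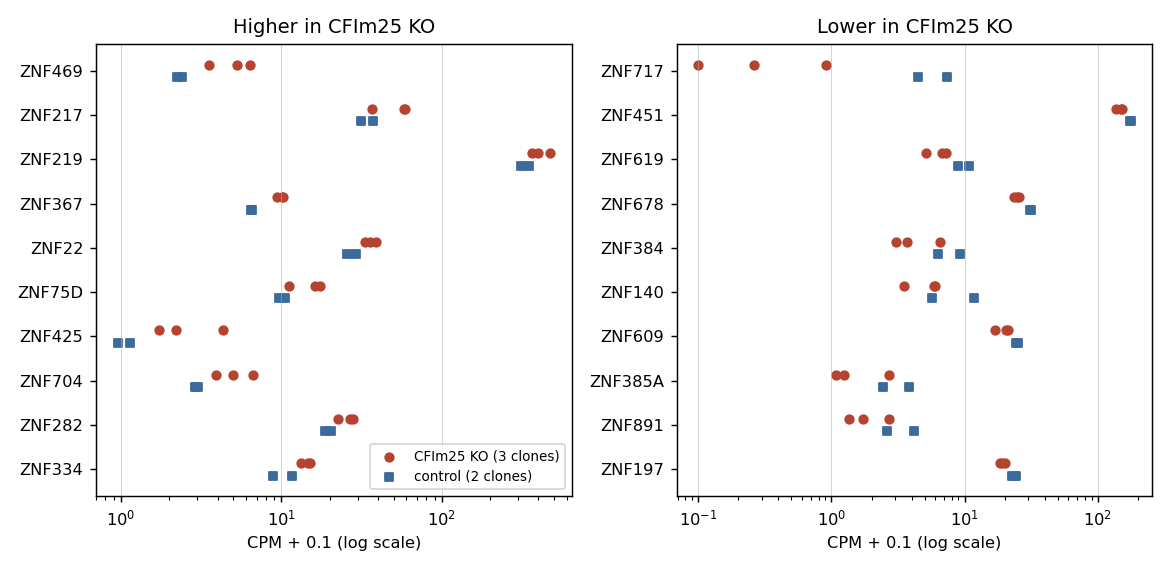
Level of the 10 members with the smallest unadjusted p in each direction (x axis, CPM + 0.1, log scale), with CFIm25 KO clones as circles above the controls as squares, 1 point per library. ZNF717 has 0 to 0.804 CPM in CFIm25 KO and 4.38 and 7.26 CPM in control, and ZNF217, ZNF384, ZNF140, ZNF385A and ZNF891 overlap between the groups.

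The members were then grouped by what their proteins do. Of 9 ZNF proteins that act on RNA or ribosomes, 8 were tested, none was called and none had an unadjusted p under 0.05, and their median log2 fold change was 0.05. ZNF638, which silences incoming viral DNA with the HUSH complex, had 144.4, 131.8 and 119.4 CPM in CFIm25 KO and 118.8 and 109.7 CPM in control. ZNF598, the ubiquitin ligase that marks collided ribosomes, had 60.8, 68.2 and 66.3 CPM in CFIm25 KO and 57.5 and 56.6 CPM in control. Both were higher in all clones, and no other member of this list was without overlap (edgeR adjusted p = 0.813 and 0.839). That makes 2 of 8, near the 24.5% of all genes. The other members of smallest p, ZNF326 of the DBIRD complex and the RNA-binding protein ZNF106, differed by 0.18 and -0.14 on the log2 scale with overlapping groups.

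Of 14 ZNF proteins of chromatin complexes or corepressors, 13 were tested, with a median of 0.02, 7 above 0 and 6 below, and none called. ZNF217 and ZNF451 were the 2 with an unadjusted p under 0.05, where all genes gave 7.13%. ZNF532, a fusion partner of NUT in carcinoma, and the Parkin-regulated repressor ZNF746 differed by -0.14 and 0.17 on the log2 scale, within the spread of the clones.

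Of 11 ZNF proteins tied to pluripotency or cell division all were tested, with a median of 0.08, 8 above 0 and 3 below, and none called. ZNF281, a NANOG-repressing factor of stem cells, had 59.6, 59.8 and 61.1 CPM in CFIm25 KO and 53.8 and 59.1 CPM in control, so the groups were adjacent. ZNF322, known in mouse as a pluripotency factor, had 102.3, 81.3 and 100.1 CPM in CFIm25 KO and 113.4 and 103.3 CPM in control (log2 fold change -0.20, edgeR adjusted p = 0.837). ZNF148 and ZNF292 stood 0.35 and 0.33 higher on the log2 scale, both with overlapping groups.

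The corepressor machinery of KRAB proteins, a list that holds no member, gave 21 tested genes with a median of -0.01, 10 above 0 and 11 below, and edgeR called none while 1 had an unadjusted p under 0.05, where all genes gave 0.0591% and 7.13%. CBX1, a heterochromatin protein, had 105.2, 88.7 and 88.1 CPM in CFIm25 KO and 133.8 and 104.6 CPM in control (edgeR adjusted p = 0.668). SETDB1, the H3K9 methyltransferase of the pathway, had 51.3, 55.1 and 50.9 CPM in CFIm25 KO and 43.8 and 46.1 CPM in control (edgeR adjusted p = 0.818). TRIM28 was not among those tested.

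The members were also laid out by chromosome. The 23 tested members on chromosome 16 had a median of 0.14 on the log2 scale with 17 above 0, against 0.03 for all 561 genes of that chromosome. On chromosome 7 the 23 tested members had a median of 0.02, against 0.01 for all its genes. The 6 members of chromosome 20 had a median of 0.32, against 0.06 for all 329 genes there. Medians of the 8 members on chromosome 18 and the 6 on chromosome 15 were -0.12 and -0.11. These medians rest on few genes and carry no test.

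**Figure D3:**
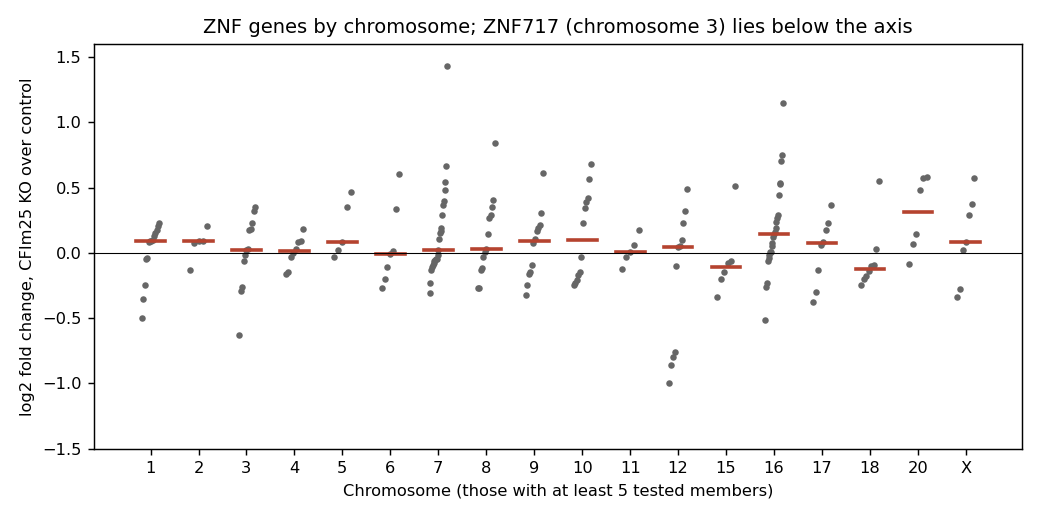
Log2 fold change of CFIm25 KO over control (y axis) for each tested member by chromosome (x axis, those with at least 5 tested members), with 1 point per gene and a bar at the median. Medians lie between -0.12 on chromosome 18 and 0.32 on chromosome 20, and the genes of each chromosome spread on both sides of 0.

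The CFIm25 KO clones also differed among themselves. Among 154 members with a mean of at least 5 CPM, the highest clone was 1.29 times the lowest at the median, against 1.30 for 9440 genes. The ratio passed 2 in 7 members (4.55%), against 7.88% of those genes. ZNF25 had 8.15, 4.59 and 3.02 CPM in the 3 clones, against 6.04 and 4.91 CPM in control, the widest ratio at 2.70. ZNF664 had 51.7, 72.0 and 30.6 CPM in the clones, against 37.1 and 36.5 CPM in control, so clone 3 lay below the controls and the others above. ZNF236 was highest in clone 2 (5.20, 10.3 and 4.42 CPM, against 6.88 and 6.19 CPM in control).

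ZNF169, a KRAB gene, was highest in clone 3 (3.93, 3.93 and 8.85 CPM, against 4.59 and 5.76 CPM in control). ZNF644, a partner of the H3K9 methyltransferases G9a and GLP, was highest in clone 1 (7.73, 4.59 and 3.22 CPM, against 4.79 and 4.70 CPM in control). Over the 191 tested members clone 2 was the highest clone for 78, clone 3 for 58 and clone 1 for 55.

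Single poly(A) sites were tested next, to see which end of a gene carried a difference. Of the 415 sites 351 passed the filter, and edgeR called none, against 0.101% of all 24722 sites tested. DESeq2 called 1, the site of ZNF717, and 0.26% of all 29996 sites. In edgeR 22 member sites had an unadjusted p under 0.05 (17 higher, 5 lower), or 6.27%, against 8.11% of all sites (4.11% higher, 4.01% lower). The groups did not overlap for 88 sites (25.1%, against 25.9% of all sites), 58 higher and 30 lower, or 16.5% and 8.55%, where all sites gave 12.6% and 13.3%. In ZNF638 an exonic and an intronic site upstream had 30, 23 and 20 and 32, 30 and 15 reads in CFIm25 KO, against 12 and 5 and 8 and 12 reads in control. The leading 3' UTR site of ZNF638 had 806, 570 and 400 reads in CFIm25 KO and 451 and 376 in control, and held 72.6% of the gene in CFIm25 KO and 76.2% in control. Of its intronic and 3' UTR reads together, all intronic sites took 9.34%, 14.3% and 15.1% in CFIm25 KO and 9.62% and 13.8% in control. These intronic shares overlapped between the groups (shift 0.14, edgeR adjusted p = 0.927).

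Use of a site relative to the other sites of its gene was tested for 248 member sites. The intronic site of ZNF133 was the 1 called, where all 13949 sites gave 0.043%. It passed the count filter through the CFIm25 KO libraries alone, where it is high, so a difference was built into its entering the test, and the call adds nothing to the reads given below. An unadjusted p under 0.05 was reached by 4 member sites, all with more relative use in CFIm25 KO, or 1.61%, against 3.48% of all sites (1.61% more, 1.87% less). More relative use in CFIm25 KO was fitted for 125 of the 248, where all sites gave 49.9%. ZNF133, a KRAB zinc finger gene on the plus strand of chromosome 20, has an intronic site at position 18294635 and a 3' UTR site at 18316991 (GRCh38). The intronic site had 16, 15 and 7 reads in the CFIm25 KO clones and 0 and 0 reads in the controls. The 3' UTR site had 155, 113 and 117 reads in CFIm25 KO and 127 and 108 in control, so the usual end was present in every library.

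As a share of both ends, the intronic site of ZNF133 took 9.36%, 11.7% and 5.65% in CFIm25 KO and 0% in both controls. Pooled over the group it had 2.09 CPM in CFIm25 KO, against a control limit of 0.316 CPM (3 reads over the group), a ratio of 6.60. That ratio leaves out the counting error and the clone spread of CFIm25 KO, so it is no lower bound. The edgeR adjusted p was 0.0440 for relative use of the site and 0.00485 for intronic against 3' UTR reads, and 0.202 for the level of the site by itself. The fitted shift of the intronic comparison was 6.75 on the log2 scale, which depends on the prior count, since both controls are at 0, and is no bound. Without control 1 or control 2 its adjusted p in edgeR was 0.336 and 0.165 with shifts of 6.70 and 6.90, and without CFIm25 KO clone 1 or clone 2 the site no longer passed the count filter. The call remained without clone 3 and with limma on the log2 ratio per library (limma adjusted p = 0.00499), which keeps both ends of a library together. These fits hold the same reads, which entered through the CFIm25 KO libraries alone, so they add no support for a difference. Over the alternatives that gave a value the adjusted p of the intronic comparison ran between 0.000137 and 0.336 in edgeR.

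**Figure D4:**
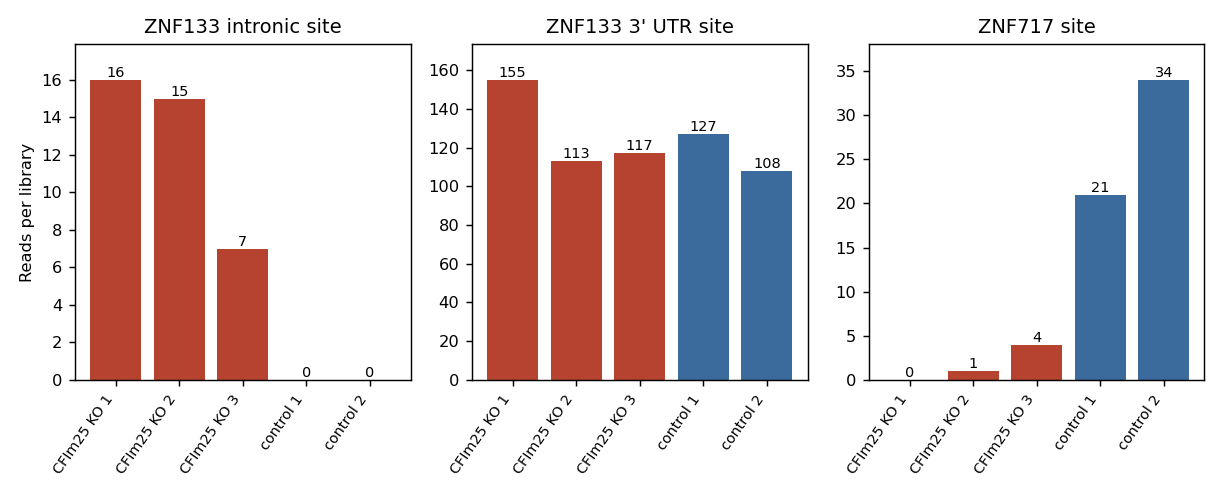
Reads per library (y axis, from 0) at the intronic and the 3' UTR site of ZNF133 and at the single site of ZNF717, with the 3 CFIm25 KO clones left of the 2 controls and 1 bar per library. The ZNF133 intronic site has 7 to 16 reads in CFIm25 KO and 0 in control, its 3' UTR site has over 100 in every library, and ZNF717 has 0 to 4 reads in CFIm25 KO and 21 and 34 in control.

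Intronic against 3' UTR ends could be tested for 27 members, and ZNF133 was the 1 called, where 1006 genes gave 0.596%. As above, its intronic reads entered this comparison through the CFIm25 KO libraries alone, so the call is no support for a difference by itself. The unadjusted p was under 0.05 for 3 members (11.1%, against 10.5% of all genes tested), each with more intronic use in CFIm25 KO, where all genes gave 6.36% with more and 4.17% with less. ZNF789 had an intronic share of 27.9%, 46.7% and 39.6% in CFIm25 KO and 17.9% and 21.3% in control, and ZNF273 had 69.7%, 69.4% and 67.9% in CFIm25 KO and 55% and 39.4% in control. Both are KRAB zinc finger genes of chromosome 7, neither overlapped between the groups, and neither passed (edgeR adjusted p = 0.284 and 0.314).

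ZNF720 went the other way, with 2.08%, 2.89% and 4.27% in CFIm25 KO and 5.32% and 4.59% in control. ZNF141 had 50.3%, 45.6% and 36.3% in CFIm25 KO and 58.9% and 48.9% in control, and the readthrough gene ZNF670-ZNF695 had 83.8%, 78.7% and 83.3% in CFIm25 KO and 72.3% and 80.8% in control, both with overlap. The median shift over the 27 members was 0.07 on the log2 scale, against 0.02 for all genes tested, with 14 above 0 where all genes gave 51.5%. The groups did not overlap for 6 of the 27 (27.9% of all genes), 4 with more intronic use and 2 with less, where all genes gave 14.2% and 13.7%.

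Tandem 3' UTR ends, the kind of choice that UGUA binding is known to steer, were compared as proximal over distal reads of the 2 leading sites of a gene, so that a positive shift is more proximal use in CFIm25 KO. Of 57 member pairs edgeR called none, against 0.152% of 3293 pairs. An unadjusted p under 0.05 was reached by 5 pairs (2 with more proximal and 3 with more distal use), where all pairs gave 10.6% (3.22% proximal, 7.38% distal), and limma on the log2 ratio also called none. The groups did not overlap for 12 pairs (21.1%, against 30.5% of all pairs), 6 toward proximal and 6 toward distal use, or 10.5% each, where all pairs gave 10.7% and 19.9%. The median shift of the members was -0.04 on the log2 scale with 26 of 57 above 0, against -0.09 over all pairs, of which 42.2% lay above 0.

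ZNF747 showed the smallest p of the pairs. Its proximal end, without AATAAA or ATTAAA in the sequence shown above, took 36.4%, 42.3% and 34.5% of the pair in CFIm25 KO and 17.9% and 12.1% in control, at a distance of 1091 bases from the distal end. The shift was 1.77 (SE 0.542, edgeR adjusted p = 0.230), and only 4 to 22 proximal reads a library stood behind it. ZNF639 and ZNF334 also leaned proximal in every clone, ZNF639 with 77.8%, 73.3% and 72.7% in CFIm25 KO and 59.1% and 60.5% in control. For ZNF334 the proximal share was 16.0%, 17.5% and 19.4% in CFIm25 KO and 9.09% and 9.76% in control.

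More distal use was seen in ZNF292, ZNF501 and ZNF496, again in every clone. ZNF292 had a proximal share of 81.2%, 89.5% and 80.9% in CFIm25 KO and 93.2% and 94.1% in control. ZNF501, which takes part in Golgi structure, had 78.9%, 64.4% and 60.9% in CFIm25 KO and 81.8% and 83.3% in control. ZNF496, whose proximal and distal ends both carry AATAAA, had 62.0%, 65.9% and 60.2% in CFIm25 KO and 75% and 72.4% in control. The edgeR adjusted p of these pairs was 0.449, 0.453 and 0.466. ZNF410, which activates CHD4, had 41.2%, 26.8% and 32.2% in CFIm25 KO and 58.6% and 39.7% in control. ZNF783 went the other way, toward proximal use, with 55.2%, 59.0% and 61.7% in CFIm25 KO and 30% and 54.7% in control. Its proximal end lay 7 bases before the annotated gene end, and its distal end, 12313 bases further, lay beyond it. Whether both ends belong to the same 3' UTR was not tested.

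In the 2 pairs with the most reads the mean proximal shares of the groups differed by less than the SD of the controls. The pair of ZNF207 had a proximal share of 73.6%, 76.7% and 70.5% in CFIm25 KO and 70.4% and 75.7% in control, and that of ZNF451, 101 bases apart, had 81.8%, 82.1% and 82.5% in CFIm25 KO and 80.4% and 84.8% in control. In both the groups overlapped (shift 0.07, SE 0.224, and -0.05, SE 0.218). ZNF48, the next in reads, had 73.0%, 78.9% and 73.1% in CFIm25 KO and 79.8% and 78.8% in control, with overlap (edgeR adjusted p = 0.741). ZNF24 had 48.7%, 45.1% and 44.7% in CFIm25 KO and 48.9% and 51.9% in control, without overlap (edgeR adjusted p = 0.814). A pair that differed between clones was ZNF609, with 33.8%, 2.91% and 4.95% in CFIm25 KO and 28.4% and 17.9% in control. Clone 1 lay above both controls and the other clones below them, and without it this was the 1 pair that edgeR called, in a fit that called 0.252% of all pairs. ZNF207, ZNF451, ZNF48, ZNF24 and ZNF609 were picked for this paragraph after their pair values were seen.

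**Figure D5:**
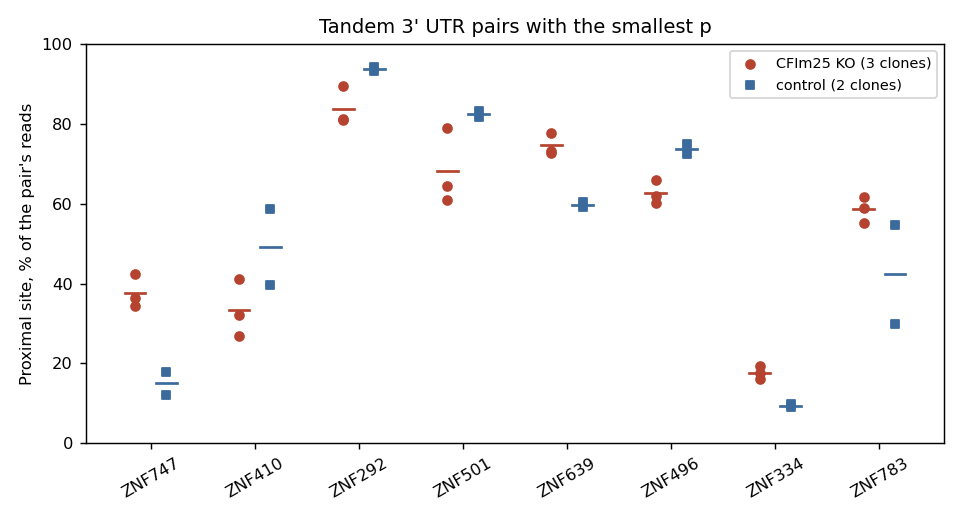
Proximal site as a percent of the reads of the pair (y axis, 0 to 100) for the 8 member pairs with the smallest p, with 3 CFIm25 KO clones as circles left of 2 controls as squares and a bar at each group mean. The groups do not overlap for ZNF747, ZNF292, ZNF501, ZNF639, ZNF496, ZNF334 and ZNF783, and they overlap for ZNF410.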

How the data were processed

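The authors mapped the reads with Bowtie2 (version not given in the sources used here), took read ends as poly(A) junctions, removed internal priming and clustered ends into sites. The deposited values are raw counts per site with their sum, RPM per library and a score column holding the summed RPM (every site listed was at or above 5). Their deposited fold (a ratio of mean RPM) and unadjusted p-value columns were not used. Labels name hg19, but of the sites that could be compared 98.85% (n = 22974) fell no more than 5000 bp from the matching gene of GRCh38.p14, against 12.47% (n = 24685) for GRCh37, so positions are given as GRCh38. Reads without a gene (9.78% to 10.8% a library) were left out of gene tests.

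Counts summed per gene, and counts per site, were tested over the whole table with edgeR 4.0.16 in R 4.3.3 (TMM, filterByExpr, robust quasi-likelihood, two-sided, Benjamini-Hochberg at 0.05). Relative use, tandem pairs (the 2 leading 3' UTR sites, each at least 5% of the pair) and intronic use were tested with diffSpliceDGE, without a library term. Alternatives were DESeq2 1.42.0, limma 3.58.1 on log2 ratios (counts + 0.5), other scalings, filters and pairs, a replicate block, and each library left out. The gene, site, tandem and intronic tests were run on simulated data in which only features with many reads were changed. Relative use was not simulated. That check therefore does not cover features with few reads, such as the intronic site of ZNF133 and the site of ZNF717. CPM values use TMM library sizes, while values given as reads are not scaled, and every CFIm25 KO library held more reads than the controls. Reads carry no molecular identifiers, so intervals (95%) and the limit of 3 reads cover counting error only.

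Members and lists were chosen with earlier results of these data known. Named were members past the threshold, the 10 smallest p in each direction, the 8 most abundant, the 6 widest clone ratios (mean at least 5 CPM, at least 3 reads in each clone), the 8 tandem pairs and 6 intronic comparisons of smallest p, up to 4 a list, ZNF717 and NUDT21. ZNF667 lies on chromosome 19 and was not used. Replicate numbers name separate clones and do not pair libraries.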

Additional observations from a re-analysis of the deposited data

How the results depend on the processing

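Over 48 named member results and 483 alternative values, 449 kept direction and side of the threshold, 13 reversed, 5 fell back over the threshold and 16 crossed it. DESeq2 and scaling by library totals each called 1 member at gene level and 1 at site level, ZNF717 in each. All genes gave 0.213% and 0.0929%, and all sites 0.26% and 0.109%. As above, these calls rest on the same few reads and add no support for a difference. Leaving out each CFIm25 KO clone in turn gave 0 to 2 members called at gene level, against 0.0258% to 1.03% of all genes. It gave 0 to 3 at site level, against 0.123% to 1.32% of all sites. Relative use gave 0 to 1, tandem pairs 0 to 1 and intronic use 0 to 1. All features gave 0.0768% to 0.145%, 0.126% to 0.719% and 0% to 2.15% in these. With each single library left out, the median log2 fold change of the members ranged between 0.025 and 0.13. Of members without overlap, 42 to 70 were then higher (22.2% to 35.2%, against 17.6% to 24.3% of all genes). Another 27 to 40 were lower (14.3% to 20.1%, against 17.7% to 25.4% of all genes). These counts were added after the data were examined and rise by construction with fewer libraries. Limma on the log2 ratio called 2 member sites for relative use, both of ZNF133, which has 2 sites tested. With the replicate block, 7 of 191 members were called at gene level: ZNF217, ZNF219, ZNF316, ZNF445, ZNF664, ZNF740 and ZNF717 (6 higher, 1 lower). At site level 7 of 351 were called. These fits called 634 genes (5.35%) and 624 sites (2.52%) in all. For relative use 0 member sites were called, against 0.179% of all sites. The replicate numbers name separate clones and do not pair the libraries. The correlation of deviations was 0.0716 for clone 1 with control 1 and 0.0455 for clone 2 with control 2. Deviations of the 2 controls from their own mean mirror each other, so these values cannot decide whether libraries were paired. Clone 3 has no partner, so it takes no part in the blocked contrast. The cause of these changes was not tested. Near-zero log2 fold changes reversed for ZNF25 (0.20 with the block, -0.51 to 0.23 without single libraries), ZNF169 (-0.39 with the block, -0.39 to 0.29), ZNF236 (-0.0020 with library totals, -0.43 to 0.23), ZNF687 (-0.039 to 0.28) and ZNF644 (-0.27 to 0.39, lowest without clone 1). The median member site held 19 to 30 reads a library, so single sites were measured with few reads.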
